A study of Mus musculus with 6 samples.

Results

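The cytosolic ribosome is built from a large and a small subunit, and each of its proteins is encoded in the mouse by its own gene. The genes examined here were chosen by name: every row of the deposited count tables whose symbol is that of a large subunit (Rpl, Rplp) or small subunit (Rps, Rpsa) protein, without pseudogenes and without the Rps6k kinases. Of 55377 rows, 90 matched the name rule, and 6 of these (Rpl6l, Rpl32l, Rps12l1, Rps3a2, Rps3a3 and Rps4l) were left out because GENCODE M21 annotates them as pseudogenes. This left 84 genes, 52 of the large and 32 of the small subunit. They were compared between cultures transfected with an siRNA against Irf1 and cultures transfected with a control siRNA.

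The cells were chondrocytes in primary culture from articular cartilage of the mouse, the cells that make and maintain cartilage matrix. The labels state the genotype of the 3 Irf1 siRNA libraries as an Irf1 knockdown and that of the 3 control siRNA libraries as control, and RNA was taken 36 h after transfection in both. They give no strain, age or sex of the animals, no siRNA sequence, and do not say whether the replicates are separate cultures or animals. The p-values therefore cover only how far these libraries differ from each other, and that spread may be technical. The knockdown is transient, and Irf1, which encodes interferon regulatory factor 1, kept part of its counts: 125, 140 and 141 in the Irf1 siRNA libraries, against 312, 355 and 362 in the control libraries (log2 fold change -1.10, SE 0.11, edgeR quasi-likelihood adjusted p = 3.0e-06).

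Ribosomal protein mRNAs are short and abundant, and in mammals many of them begin with a run of pyrimidines, the terminal oligopyrimidine (TOP) tract, through which mTOR signalling and the protein LARP1 set how strongly they are translated. Their proteins are made in the cytoplasm, imported into the nucleus, and assembled on ribosomal RNA in the nucleolus, and surplus protein that finds no partner is degraded. In growing and matrix-secreting cells such as chondrocytes, ribosomes carry the synthesis of collagens and proteoglycans. Loss of 1 copy of several ribosomal protein genes causes Diamond-Blackfan anemia in humans.

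Total counts ran between 22349142 and 26752065 in the Irf1 siRNA libraries and between 28565096 and 29282494 in the control libraries, so every Irf1 siRNA library was the shallower. All 12 chondrocyte markers were detected, with a summed level of 95978 to 121758 CPM (counts put on a common library size) in the Irf1 siRNA libraries and 94965 to 120220 CPM in the control libraries. Of the 12, Hapln1, which links aggrecan to hyaluronan, was lower, at 871, 1013 and 884 CPM in the Irf1 siRNA libraries, against 1805, 1895 and 1885 CPM in the control libraries (log2 fold change -1.04, SE 0.061, edgeR adjusted p = 1.6e-08). Of 7 fibroblast markers, Col1a1, Col1a2 and Col3a1 were lower, and the list summed to 6024 to 6973 CPM in Irf1 siRNA libraries, against 7976 to 9218 CPM in control libraries. Most of this sum was Col1a1 and Col1a2. The markers Dcn, Lum and Pdgfra did not pass (log2 fold changes 0.015, -0.11 and 0.012), and Dpt had 0 to 4 counts per library. The 6 macrophage markers summed to 8.89 to 9.93 CPM in Irf1 siRNA libraries and 5.92 to 8.64 CPM in controls, with 2 of the 6 at 0 in every library. Nearly all of this sum was Cd68, at 8.51 to 9.49 CPM in Irf1 siRNA libraries and 5.46 to 7.62 CPM in controls, while Csf1r had 0.268 to 0.299 CPM in Irf1 siRNA libraries and 0.313 to 0.512 CPM in controls. The part of these markers in the results was not tested. Counts are shares of a library, so more ribosomal protein mRNA per cell and less of other mRNA per cell cannot be told apart here, and neither can fewer cells of a type and less RNA per cell. Control replicate 2 stood apart from the other controls in the shortest of these genes, as given with the results it touches.

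Start sites are shown for some members with large changes and for Rpl12, which had a small one. Each sequence holds 15 bases before and 15 bases from an annotated RefSeq transcript start on (GRCm38.p6), read 5′ to 3′ on the strand of the gene, and capitals mark a run of at least 7 consecutive C or T that comes within 5 bases of the start. The first 3 genes hold such a run and the other 3 hold none. Rps15a, Rps27, Rps28, Rpl37a and Rpl39 are described because they stood above the other members, and Rpl12 because it hardly differed between the treatments. These sequences cannot show whether members with large and small changes begin alike. Among members not shown, Rpl13a and Rpl38 (large changes) and Rps9 (small) hold such a run, while Rpl10, Rplp0 and Rps2 (small) hold none.
Rps15a, chr7:118116133-118116162, minus strand: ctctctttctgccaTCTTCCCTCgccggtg
Rps27, chr3:90213634-90213663, minus strand: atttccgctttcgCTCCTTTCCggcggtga
Rpl12, chr2:32961697-32961726, plus strand: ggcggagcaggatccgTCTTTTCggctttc
Rpl37a, chr1:72711245-72711274, plus strand: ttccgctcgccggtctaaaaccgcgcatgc
Rpl39, chrX:37085208-37085237, minus strand: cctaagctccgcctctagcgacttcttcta
Rps28, chr17:33824548-33824577, minus strand: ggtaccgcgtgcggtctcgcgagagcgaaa
A start window was found for 64 of the 84 genes, and 29 of the 64 (45.3%) held the run in at least 1 window, as did 4249 of 27025 genes of all kinds (15.7%). By subunit, it was 19 of 40 large subunit genes and 10 of 24 small subunit genes. The annotated start need not be the start used in these cells.

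Summed over the 84 genes, ribosomal protein mRNA made up 3.60%, 3.49% and 3.35% of all counts in the Irf1 siRNA libraries, against 3.06%, 2.90% and 3.15% in the control libraries. Every Irf1 siRNA library lay above every control library, at a mean of 3.48% ± 0.126 for Irf1 siRNA and 3.04% ± 0.125 for control siRNA (SD, n = 3 each), a ratio of 1.14. The large subunit genes took 2.02% ± 0.0777 of the counts after Irf1 siRNA and 1.77% ± 0.0698 after control siRNA, and the small subunit genes 1.46% ± 0.0491 after Irf1 siRNA and 1.27% ± 0.0571 after control siRNA (SD, n = 3 each). Both subunits were thus higher by a like factor, 1.14 for the large and 1.15 for the small. The ratio of large to small subunit counts was 1.40, 1.38 and 1.38 in Irf1 siRNA libraries, against 1.42, 1.40 and 1.38 in control libraries, and the treatments overlapped. With 3 libraries against 3, an exact permutation test of such a single value cannot give p below 0.1, so none was run.

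**Figure D1:**
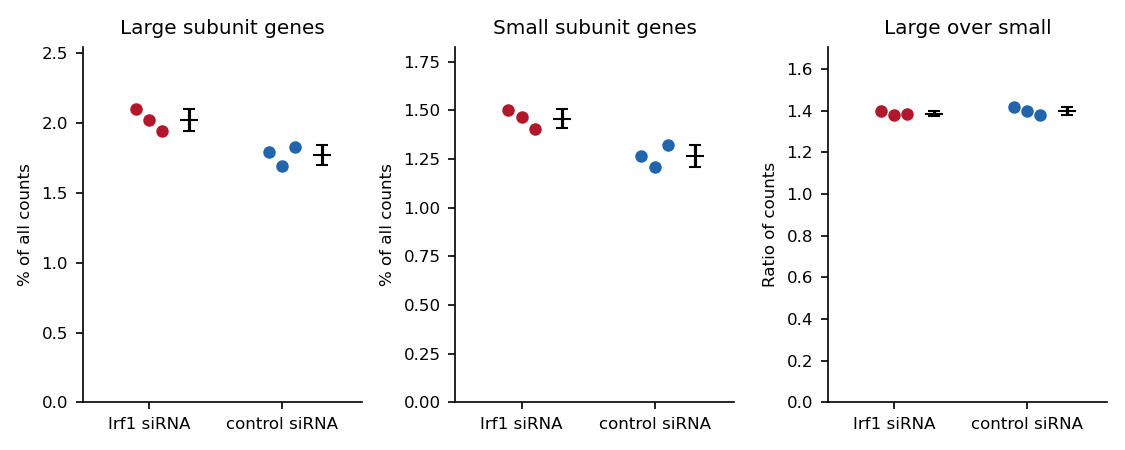
Share of all counts held by the large subunit genes (left) and the small subunit genes (middle), in percent, and the ratio of large to small subunit counts (right), with 1 point per library and the mean ± SD of 3 libraries in black. Both shares are higher in all 3 Irf1 siRNA libraries (2.02% and 1.46% on average) than in all 3 control libraries (1.77% and 1.27%), while the ratios overlap.

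For the mitochondrial ribosome, whose proteins are encoded by separate nuclear genes, the shares of the treatments overlapped. Its 78 genes held 0.222% to 0.234% of counts in the Irf1 siRNA libraries and 0.226% to 0.236% in the control libraries. Of 77 tested, 3 were higher (10.4% of all tested genes) and 10 lower (12.0% of all tested genes), with a median log2 fold change of -0.00. The 326 pseudogene rows named after the cytosolic genes held 0.174% to 0.204% of counts in Irf1 siRNA libraries and 0.168% to 0.175% in control libraries.

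Gene by gene, 82 of the 84 had enough counts to be tested in the fit across 14683 genes. Rpl10l, a retrogene copy of Rpl10 known from the testis, had 0 counts in every library, and Rpl3l, a copy of Rpl3 known from striated muscle, had 0, 1 and 0 counts in the Irf1 siRNA libraries and 0, 4 and 0 in the control libraries. Of the 82, 34 rose after Irf1 siRNA at an adjusted p under 0.05 (41.5%; 10.4% of all tested genes were called higher) and 0 fell (12.0% of all tested genes were called lower). At an unadjusted p under 0.05, edgeR counted 65 higher (16.7% of all tested genes) and 0 lower (17.7%), and DESeq2 called 47 higher (9.26% of all tested genes) and 0 lower (10.5%). In edgeR 81 fold changes were positive and 1 negative. The median log2 fold change was 0.20, a 1.15-fold difference, beside 0.00 over all tested genes. In 60 of the 82 (73.2%) every Irf1 siRNA library lay above every control library, which held for 18.6% of all tested genes.

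Among large subunit genes 24 of 50 rose, with a median log2 fold change of 0.22. Among small subunit genes 10 of 32 rose, with a median of 0.17. Groups did not overlap in 36 of 50 large and 24 of 32 small subunit genes. The difference between the subunit medians was 0.049 on the log2 scale and was not tested. It came to 0.0041 when control replicate 2 was left out.

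Of the 6 libraries, this one moved the count of calls the most. Without control replicate 2, 14 members rose (10 large, 4 small; 6.54% of 14991 genes were called higher in that fit), and 11 of the 14 were among the 34. Without Irf1 siRNA replicate 1 the count was 20 (8.38% of genes were called higher in that fit). The direction was less affected: 80 of the fold changes were positive without control replicate 2, with a median of 0.15. In the fits that left out each of the 6 libraries in turn, 10 genes rose every time. They were Rps15a and Rps27a of the small subunit and Rpl9, Rpl22, Rpl26, Rpl27, Rpl29, Rpl31, Rpl37a and Rpl38 of the large subunit. The share of all tested genes that rose in every one of these fits is not reported here. This count therefore cannot be set against all genes.

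**Figure D2:**
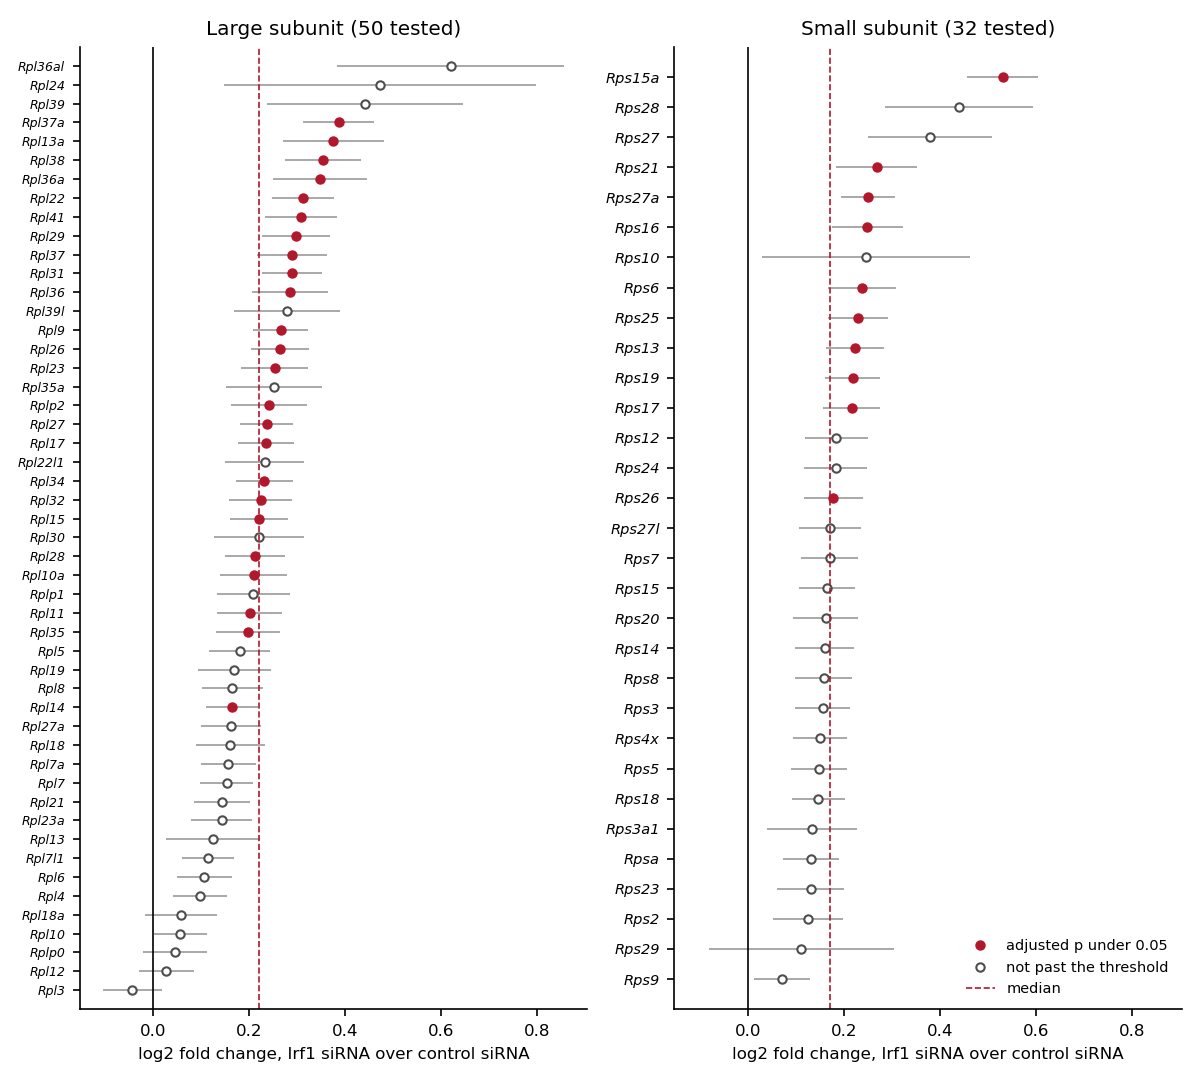
Log2 fold change of Irf1 siRNA over control siRNA for the 50 tested large subunit genes (left) and the 32 tested small subunit genes (right, 1 not shown), ordered by size, with bars of 1 SE from edgeR (3 libraries per treatment). Filled points passed an adjusted p of 0.05, the black line marks 0 and the dashed line the median of the subunit (0.22 large, 0.17 small); all but Rpl3 lie above 0, and Rps15a leads the small subunit at 0.53.

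Rps15a, a small subunit protein that binds the central part of the ribosomal RNA and a Diamond-Blackfan anemia gene in humans, had the largest change among well expressed members. Its row in the files carries the identifier ENSMUSG00000008683.17, and the gene lies on chromosome 7. It had 473, 455 and 448 CPM in the Irf1 siRNA libraries, against 328, 276 and 348 CPM in the control libraries. The lowest Irf1 siRNA library thus lay well above the highest control. The log2 fold change was 0.53 (SE 0.073, edgeR adjusted p = 9.3e-05), a 1.44-fold rise, and the adjusted p stayed between 8.5e-06 and 9.2e-04 when any 1 library was left out. In units of the scaled median absolute deviation of small subunit genes, Rps15a lay 6.0 above their median. In GENCODE M21 no other gene apart from small RNA genes overlaps it. Of the 50-base words of its coding sequence 84.2% also occur in a transcript annotated to another gene, against 6.28% over its whole annotated transcript, most of which is 3′ UTR. How far its level depends on reads shared with such copies was not tested.

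Beside Rps15a, Rps28 (by 4.5), Rps27 (by 3.5) and Rpl36al (by 4.2) lay over 3 such units from the median of their own subunit. Rps28, a protein at the channel where mRNA leaves the small subunit, had 160, 160 and 157 CPM after Irf1 siRNA, against 128, 87.3 and 135 CPM after control siRNA. The groups did not overlap, but control replicate 2 was far below the other controls, and the log2 fold change of 0.44 (SE 0.15) had an edgeR adjusted p of 0.091. Rps27, which carries a zinc finger, had 188, 187 and 194 CPM after Irf1 siRNA, against 153, 114 and 170 CPM after control siRNA (log2 fold change 0.38, SE 0.13, edgeR adjusted p = 0.074). Without control replicate 2 the log2 fold changes of Rps28 and Rps27 were smaller, 0.27 and 0.23, and both then passed the threshold (edgeR adjusted p = 0.012 and 0.034). Rpl36al, a copy of Rpl36a, had only 26 to 46 counts per library, and its log2 fold change of 0.62 (SE 0.24) did not pass (edgeR adjusted p = 0.074).

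The other genes at the top of the small subunit were Rps21 and, just below it, Rps27a, whose product is made as a fusion with ubiquitin. Rps21 had 231, 193 and 185 CPM after Irf1 siRNA and 180, 151 and 174 CPM after control siRNA, a log2 fold change of 0.27 (SE 0.084, edgeR adjusted p = 0.035). It was 0.17 without Irf1 siRNA replicate 1 and 0.20 without control replicate 2 (edgeR adjusted p = 0.13 and 0.15), and it also missed the threshold without Irf1 siRNA replicate 2 or control replicate 3 (0.053 and 0.062). At the low end stood Rps9 (log2 fold change 0.07), Rps29 (0.11) and Rps2 (0.13), of which none passed. Rps9 and Rps2 sit where mRNA enters the small subunit. Rps29, a zinc-binding protein of the small subunit head, had 174, 191 and 185 CPM after Irf1 siRNA, against 190, 122 and 198 CPM after control siRNA. Here controls 1 and 3 were level with or above the Irf1 siRNA libraries and only control 2 was low, and without it the log2 fold change was -0.08.

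In the large subunit, the 4 genes with the largest changes at a mean of at least 5 CPM were Rpl39, Rpl37a, Rpl13a and Rpl38. Rpl39, a very small protein that lines the tunnel through which the new peptide leaves, had 184, 183 and 166 CPM after Irf1 siRNA, against 146, 92.6 and 154 CPM after control siRNA. All Irf1 siRNA libraries were higher, but control replicate 2 again stood low, and the log2 fold change of 0.44 (SE 0.20) did not pass (edgeR adjusted p = 0.20). Without that library it was 0.24 and passed (edgeR adjusted p = 0.029). Rpl37a, a zinc-binding protein, had 302, 282 and 286 CPM after Irf1 siRNA, against 227, 193 and 246 CPM after control siRNA, with no overlap. Its log2 fold change was 0.39 (SE 0.075, edgeR adjusted p = 0.0017). Rpl38, needed in the mouse for the translation of certain Hox mRNAs, rose by 0.35 (SE 0.080, edgeR adjusted p = 0.0055).

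Rpl13a, which in human myeloid cells also acts outside the ribosome to silence inflammatory mRNAs after interferon, had 33.1, 33.6 and 31.3 CPM after Irf1 siRNA, against 29.4, 20.4 and 25.8 CPM after control siRNA. The groups were apart by less than 2 CPM, and its log2 fold change was 0.38 (SE 0.11, edgeR adjusted p = 0.020). Without control replicate 2 its log2 fold change was 0.24 (edgeR adjusted p = 0.067), and leaving out any 1 of the Irf1 siRNA libraries gave an edgeR adjusted p of 0.051 to 0.080. Rpl22, which in the mouse is needed for the development of alpha-beta T cells, had 300, 300 and 276 CPM after Irf1 siRNA, against 244, 214 and 248 CPM after control siRNA (log2 fold change 0.31, SE 0.065, edgeR adjusted p = 0.0027).

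The lowest of the large subunit were Rpl3, Rpl12, Rplp0 and Rpl10, all proteins near the catalytic centre or the stalk to which elongation factors bind. Rpl3, on chromosome 15, had 475, 432 and 445 CPM in the Irf1 siRNA libraries, against 496, 455 and 443 CPM in the control libraries, so the treatments overlapped. Its log2 fold change was -0.04 (SE 0.061, edgeR adjusted p = 0.66), and 0.0049 without control replicate 1. Rpl12 had 705, 649 and 638 CPM after Irf1 siRNA and 670, 650 and 634 CPM after control siRNA, a log2 fold change of 0.03. Rplp0 and Rpl10 had log2 fold changes of 0.05 and 0.06, and neither passed.

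Since nearly all members shifted upward, each was next compared with the members as a whole, in a fit in which every library was scaled to its summed ribosomal protein counts. In this fit 5 members were higher than the set (3.79% of all tested genes were called higher) and 1 was lower (31.8% of all tested genes were called lower, as this scaling moves the median of all genes to -0.17). The 5 were Rps15a (log2 difference 0.36, SE 0.081, edgeR adjusted p = 8.5e-05), Rps28 (0.27, adjusted p = 0.0048), Rpl39 (0.28, adjusted p = 0.0049), Rpl37a (0.22, adjusted p = 0.027) and Rps27 (0.21, adjusted p = 0.031). The lower one was Rpl3 (-0.22, SE 0.081, edgeR adjusted p = 0.024). Rps15a alone of these 6 passed in each of the fits that left out 1 library, with an adjusted p of at most 0.011. Rps28 and Rpl39 failed in 2 of the 6 such fits, Rpl37a and Rpl3 in 4 and Rps27 in 5. Without control replicate 2, Rps15a was the 1 member called higher and none was called lower. The SEs in this fit hardly differed between well expressed members. They were 0.084 for Rps28 and for Rpl39 and 0.081 for Rpl14, against 0.15, 0.20 and 0.055 in the fit above. Its p-values thus do not follow the spread of each gene across the libraries.

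**Figure D3:**
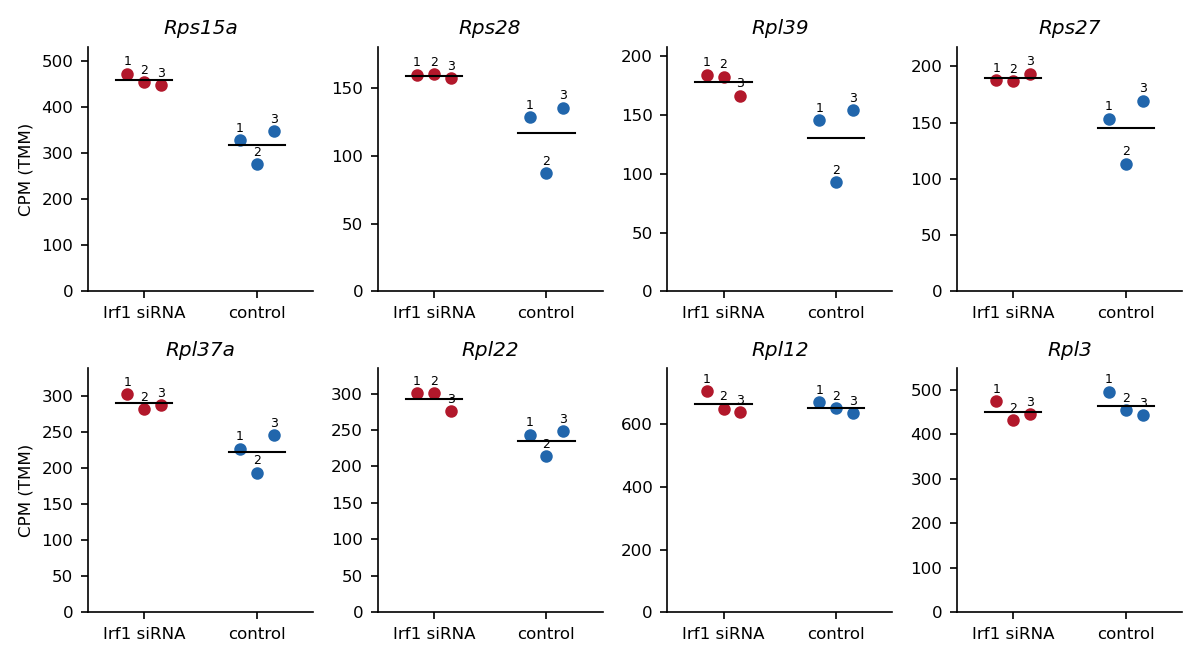
Level of 8 members in each library, in CPM scaled by TMM, with the 3 Irf1 siRNA libraries in red and the 3 control siRNA libraries in blue, numbered by replicate, and lines at the means. Rps15a, Rps28, Rpl39, Rps27, Rpl37a and Rpl22 show no overlap, with control replicate 2 lowest in each, while Rpl12 and Rpl3 overlap.

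The size of the difference went with the length of the coding sequence. The 11 tested members with under 300 coding bases had a median log2 fold change of 0.31, the 29 between 300 and 450 bases 0.23, the 19 between 450 and 600 bases 0.17, and the 23 longer ones 0.15. Across the 79 members with a mean of at least 5 CPM, Pearson's r between the log2 fold change and log2 coding length was -0.59 (Spearman's rho -0.65), and it was -0.69 over 48 large and -0.41 over 31 small subunit genes. These genes share the same 6 libraries and are not independent replicates. The log2 fold change had an r of -0.06 with GC content and of -0.50 (rho -0.57) with the log2 mean CPM.

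Genes outside the set had smaller differences at the same lengths. Their medians were 0.07 under 300 coding bases (253 genes), 0.04 between 300 and 450 (588 genes), 0.01 between 450 and 600 (756 genes) and -0.00 between 600 and 2000 (7330 genes). From the shortest to the longest of these classes 21.3%, 13.4%, 11.5% and 10.6% of them were called higher. Of the members, 5 of 11, 18 of 29, 6 of 19 and 5 of 23 rose in the same classes. In the members, control replicate 2 followed the same gradient. Its level relative to the mean of the other controls had a median of 0.785 in the shortest class and 0.876, 0.968 and 0.997 in the longer ones. Without this library the member medians were 0.23, 0.17, 0.15 and 0.14 from the shortest to the longest class, and r with coding length was -0.34.

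When each library was corrected for transcript GC content and length, 40 members rose (27 large, 13 small; 15.3% of all tested genes were called higher) and 0 fell, of which 27 were among the 34. Pearson's r with coding length was then -0.35. The median log2 fold change was 0.15 for all members, 0.16 for the large and 0.13 for the small subunit. Rps15a had 0.56 after this correction, although it is one of the members whose annotated transcript (5179 bases) is far longer than its coding sequence (390 bases).

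**Figure D4:**
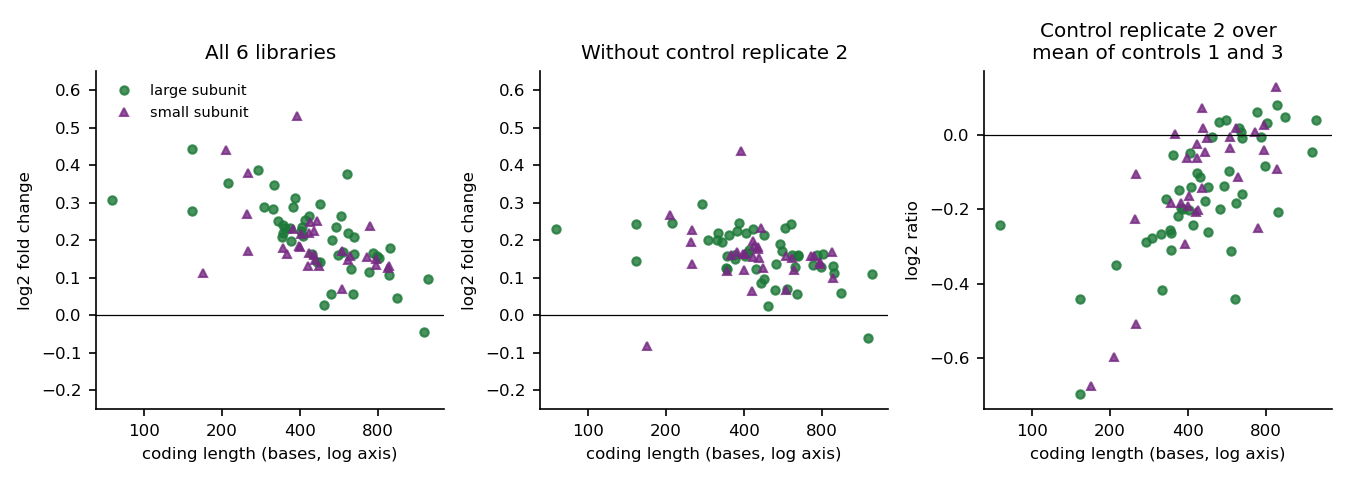
Coding length (bases, log axis) of the 79 members with a mean of at least 5 CPM against the log2 fold change of Irf1 siRNA over control siRNA with all 6 libraries (left), the same without control replicate 2 (middle), and the log2 ratio of control replicate 2 to the mean of control replicates 1 and 3 (right), with large subunit genes as circles and small subunit genes as triangles. Short genes lie highest in the left plot and lowest in the right one, and the slope is flatter without that library (r = -0.59 with it and -0.34 without it).

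By place in the ribosome, the proteins around the exit of the peptide tunnel had 5 of 9 genes risen and a median log2 fold change of 0.24, and those around the peptidyl transferase centre and the stalk bases had 1 of 5 (Rpl10a) and 0.06. Among all tested members 48% of large and 31% of small subunit genes rose. The tunnel genes had 153 to 588 coding bases, apart from Rpl4 with 1257, and the other group 495 to 1209. Place and length were not tested apart. Of the acidic stalk, which recruits elongation factors, Rplp2 rose (0.24, SE 0.079, edgeR adjusted p = 0.040), while Rplp1 (0.21) and Rplp0 (0.05) did not pass. Rpl5 and Rpl11 form with 5S ribosomal RNA the particle that inhibits the p53 ligase Mdm2 when ribosome assembly fails. Rpl11 had 425, 381 and 382 CPM after Irf1 siRNA, against 368, 313 and 351 CPM after control siRNA (log2 fold change 0.20, SE 0.068, edgeR adjusted p = 0.043), and Rpl5 had 0.18 (SE 0.064, edgeR adjusted p = 0.056). The calls of Rplp2 and Rpl11 were each lost in 4 of the 6 fits that left out 1 library. With control replicate 2 left out their log2 fold changes were 0.16 for Rplp2 and 0.14 for Rpl11, and with Irf1 siRNA replicate 1 left out 0.17 for Rplp2 and 0.15 for Rpl11. Both also missed the threshold without control replicate 3, as did Rplp2 without Irf1 siRNA replicate 2 and Rpl11 without Irf1 siRNA replicate 3. In the small subunit, 0 of 6 genes at the mRNA entry and decoding site passed in edgeR (3 at an unadjusted p under 0.05, and 2 by DESeq2), with a median of 0.14, and 1 of 5 at the mRNA exit did (Rps26), with a median of 0.16. Of 19 mouse counterparts of Diamond-Blackfan anemia genes 10 rose, with a median of 0.22. The differences between these places were not tested.

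Some members have a copy elsewhere in the genome that codes for a like protein. Of 7 such copies 5 were tested, and 0 passed at an adjusted p of 0.05 in edgeR, with 4 higher at an unadjusted p under 0.05 and 1 called by DESeq2. Their median log2 fold change was 0.23. Rpl22l1 had 31.0%, 35.3% and 32.8% of the CPM of Rpl22 in the Irf1 siRNA libraries, against 32.8%, 34.6% and 37.3% in the control libraries. Rps27l, a p53 target in humans, had 52.3%, 58.2% and 50.1% of the level of Rps27 after Irf1 siRNA and 56.8%, 75.5% and 57.2% after control siRNA, with control replicate 2 highest. Rpl39l stood at 8.15% of Rpl39 after Irf1 siRNA and 9.26% after control siRNA, Rpl7l1 at 12.7% of Rpl7 after Irf1 siRNA and 13.0% after control siRNA, and Rpl36al at 0.953% of Rpl36a after Irf1 siRNA and 0.791% after control siRNA, each as a mean of 3 libraries. These are ratios of counts, not scaled for transcript length, and their differences were not tested.

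Several members were counted at levels far below the rest. Among the 82 tested members, levels per kilobase of coding sequence ran from 1.45 CPM in Rpl24, 4.17 CPM in Rpl36al and 5.62 CPM in Rps10 to 6992 CPM in Rpl41, whose coding sequence is the shortest, with a median of 760 CPM. Rpl24 encodes a core protein of the large subunit and had 13 to 23 counts per library. In Rpl24 81.7% and in Rps10 51.8% of the 50-base words of the transcript also occur in a transcript of another gene, and the median over members was 43.5%, or 90.8% over the coding sequence alone. How reads that fit several places were counted is not given in the sources used here, so the levels of members with close pseudogenes are uncertain. Of the 326 pseudogene rows 68 were tested, with 12 higher (10.4% of all tested genes), 1 lower (12.0%) and a median log2 fold change of 0.17. The lower one, seen after its values were known, was Rpl3-ps1 (-0.25, SE 0.081, edgeR adjusted p = 0.039). Adding the counts of the pseudogene rows to their parent genes gave 37 members that rose (10.4% of all genes in that fit).

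Counts of risen genes were close for both kinds of start sequence. Of the tested genes with a pyrimidine run 14 of 29 rose, with a median log2 fold change of 0.21, and of those without one 14 of 33 rose, with a median of 0.22. Tested members with no start window are in neither count. Of all tested members 41.5% rose, beside 10.4% of all tested genes. At the other end of the mRNA, 4 words of 7 bases on the transcript strand had been picked earlier from these same data because genes with them in the 3′ untranslated region (3′ UTR) tended to fall. They are ACTGATC with the overlapping word CTGATCA, and GCTATCT with the overlapping word CTATCTA. Only 3 of the 84 members, Rpl14, Rpl3l and Rpl7l1, hold 1 of them. Of 12854 tested genes with an annotated 3′ UTR 2452 (19.1%) did, as did 686 of 1704 genes that fell (40.3%). The 3′ UTR had a median length of 91 bases in the members and 1042 bases in the tested genes.

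Lists of other genes that serve the ribosome were counted in the same fit, in which 10.4% of all tested genes were called higher and 12.0% lower. Fau and Rack1, ribosomal proteins that go by other names, had log2 fold changes of 0.16 (SE 0.078, edgeR adjusted p = 0.17) and 0.16 (SE 0.060, edgeR adjusted p = 0.063), which did not pass. Among 14 translation factors and other TOP mRNAs 2 rose and 1 fell, with a median of 0.08. Eef1g, a subunit of the elongation factor that recharges eEF1A, had 872, 766 and 775 CPM after Irf1 siRNA, against 693, 665 and 637 CPM after control siRNA (log2 fold change 0.27, SE 0.063, edgeR adjusted p = 0.0055). Its partner Eef1b2 rose by 0.19 (SE 0.057, edgeR adjusted p = 0.025) but missed the threshold without Irf1 siRNA replicate 1, control replicate 1 or control replicate 2 (0.15, 0.18 and 0.19), while the RNA-binding protein Hnrnpa1 fell by 0.40 (SE 0.068, edgeR adjusted p = 6.3e-04).

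Of 49 ribosome biogenesis factors 5 rose (10.4% of all tested genes) and 1 fell (12.0% of all tested genes), with a median of 0.07. The one that fell was Eif6, which binds the large subunit and keeps it from joining the small one too early. It had 75.5, 64.0 and 69.7 CPM after Irf1 siRNA, against 115, 110 and 112 CPM after control siRNA (log2 fold change -0.69, SE 0.064, edgeR adjusted p = 1.6e-06), with no overlap. Heatr3, which takes Rpl5 into the nucleus, had 107, 108 and 100 CPM after Irf1 siRNA, against 81.9, 87.3 and 88.5 CPM after control siRNA (log2 fold change 0.29, edgeR adjusted p = 0.0020). Nop10, a component of the particles that modify ribosomal RNA, had a log2 fold change of 0.38 (edgeR adjusted p = 0.0023). Of 13 tested RNA polymerase I genes 1 rose, Polr1d (0.19, edgeR adjusted p = 0.031), and of 13 tested regulators upstream of ribosome production 1 fell, the kinase Rps6kb2 (-0.27, edgeR adjusted p = 0.016). Polr1d missed the threshold without Irf1 siRNA replicate 1 or 2 or control replicate 1 or 2 (log2 fold changes of 0.18 in each), and Rps6kb2 without Irf1 siRNA replicate 3 (-0.27) or control replicate 2 (-0.23).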

How the data were processed

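The authors deposited raw counts per gene, whole numbers with no normalization, 1 table per library; how reads were counted, on which strand and with what rule for several matches, is not given in the sources used here. Libraries came from a stranded poly(A) kit, per the labels' protocols, and Trimmomatic 0.39, FastQC, STAR and GRCm39 are named in the submitters' processing notes. In R 4.3.3, edgeR 4.0.16 (filterByExpr, TMM, robust quasi-likelihood F test, two-sided, group as the only term) tested 14683 genes holding at least 99.92% of each library's counts, with Benjamini-Hochberg adjustment over all and a threshold of 0.05; the fits were checked on simulated data. Levels are TMM-scaled CPM, except for the levels and sums of the cell type markers, which are CPM of library totals. A repeat fit scaled libraries to summed member counts. Libraries of 1 treatment differed by a chi-square of at least 5.76 per degree of freedom, so none was a copy. Lengths, GC content, 3′ UTRs, chromosomes and pseudogene status came by identifier from GENCODE M21 (GRCm38, not the authors' build), matching 14653 tested genes (99.8%), and start windows from RefSeq. Named genes are the 4 members of each subunit with the largest and the 4 with the smallest change at a mean of at least 5 CPM, outliers, copies with their parents, 2 role lists, members called against the summed counts, and up to 3 called genes per list of non-members; a few of these are not reported here, and other names were chosen after their values were seen. Members and lists were chosen with earlier results of these data known. DESeq2 1.42.0, other scalings and filters, a GC and length correction, a replicate block, pseudogene rows added to their genes (an alternative added after seeing the data) and leaving out each library were tried.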

Additional observations from a re-analysis of the deposited data

How the results depend on the processing

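No value past the threshold changed its direction under any setting run, and 0 members were called lower in any of them in the comparison by TMM or another library scaling. The number of members that rose was 34, with 10.4% of all tested genes called higher. It was 53 with upper-quartile scaling and 14 to 40 when 1 library was left out. The low end came without control replicate 2 (6.54% of genes called higher), and leaving out Irf1 siRNA replicate 1 gave 20 (8.38%). For upper-quartile scaling, library totals only and the other left-out libraries this share is not reported here. Their counts therefore cannot be set against all genes. For the large subunit the 24 became 10 to 27 with 1 library left out. For the small subunit the 10 became 17 with DESeq2, 20 with library totals only, 21 with upper-quartile scaling and 4 to 13 with 1 library left out. Against the summed member counts, the 5 higher members became 3 with DESeq2 and 1 to 6 with 1 library left out, and the 1 lower member became 0 to 1. The 2 higher large subunit members became 1 with DESeq2, 4 with the GC and length correction and 0 to 3 with 1 library left out, and the 1 lower one 0 to 1. The 3 higher small subunit members became 1 with that correction and 1 to 3 with 1 library left out. For these alternatives of the fit scaled to summed member counts, the shares of all tested genes called are not reported here either. The large minus small median of 0.049 was 0.0041 to 0.044 with 1 library left out. Signs turned in 4 genes that passed in no setting of that comparison. Rps29 had a log2 fold change of -0.013 with the GC and length correction, and with 1 library left out Rps29 ran from -0.081 to 0.233, Rpl3 from -0.084 to 0.0049, Rpl12 from -0.018 to 0.052 and Rplp0 from -0.025 to 0.092. The causes were not tested.

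Among the other lists, the GC and length correction gave 11 biogenesis factors, 6 TOP mRNAs and 3 upstream regulators that rose. In that fit 15.3% of all tested genes were called higher, against 10.4% without the correction. Library totals only gave 4 TOP mRNAs and 2 RNA polymerase I genes that rose, and upper-quartile scaling gave 4 TOP mRNAs. Without the filter on low counts 0 RNA polymerase I genes rose and 2 upstream regulators fell. With 1 library left out, risen genes numbered 3 to 6 among biogenesis factors, 1 to 2 among TOP mRNAs, 0 to 1 among RNA polymerase I genes and 1 to 3 among mitochondrial ribosomal proteins, and fallen genes 0 to 2 among upstream regulators and 6 to 9 among mitochondrial ribosomal proteins.

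With the replicate number as a block, 50 members rose (33 large, 17 small), as did 4 TOP mRNAs and 2 RNA polymerase I genes. The share of all tested genes that rose in that fit is not reported here. Deviations of libraries with the same number correlated at 0.195, -0.045 and 0.052, so the numbers were not taken to pair the libraries. Of 606 values of single genes under the alternatives, 510 kept their direction and side of the threshold, 56 lost significance and 35 gained it. The member share was higher by 0.44 percentage points, and by 0.37 to 0.51 with 1 library left out. Differences the size of the member median lie near the limit of what 3 libraries against 3 can call, and members with under 100 counts are imprecise.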
